A study of Mus musculus with 6 samples.

Results

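The kinesin superfamily was examined in healing flexor digitorum longus (FDL) tendons after depletion of the Scx lineage. Its members were taken by symbol, as every listed gene named Kif or Kifc followed by its number and an optional letter, which gave 43 of 53819 listed genes. Of these, 12 were set apart as mitotic kinesins (Kif2c, Kif4, Kif11, Kif14, Kif15, Kif18a, Kif18b, Kif20a, Kif20b, Kif22, Kif23 and Kifc1) and compared with the other 31. The libraries came from 3 DTR ScxLin mice (Scx-Cre+; DTR F/+) and 3 WT littermates (Scx-Cre-; DTR F/+), with 1 tendon per library. Both groups therefore carried the diphtheria toxin receptor allele, underwent FDL transection and repair at 10–12 weeks of age, and received 100 ng of diphtheria toxin (DT) on each of 5 days from D14 to D18 post-surgery. Tendons were harvested at D28 post-surgery, although the titles of the samples give D28 as counted after depletion. Scx-Cre is not inducible, so the receptor marks every cell that descends from Scx-expressing cells, including those that no longer express Scx. The study asked how the loss of these cells in the proliferative phase changes the healing tendon.

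Kinesins are motor proteins that use ATP to move along microtubules or to take microtubules apart at their ends. A mitotic set builds the spindle, moves chromosomes and completes cytokinesis, and its genes are transcribed mostly in the G2 and M phases of the cell cycle. Many of the other kinesins carry vesicles, mitochondria and endosomes in non-dividing cells, or work in the cilium through intraflagellar transport. The group is not purely a transport set. It also holds Kif2a, Kif2b and Kif24, of the same subfamily as the mitotic Kif2c, and Kifc5b, a close copy of the mitotic Kifc1. In bulk tendon RNA the level of a mitotic kinesin depends on the number of dividing cells as well as on the RNA per cell, and these cannot be told apart here, nor can they for any other cell type named below.

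The promoters of most mitotic kinesins shared a sequence feature of cell cycle genes, which is therefore not independent of their choice as mitotic. The CHR element (TTTGAA) is bound by MuvB complexes, which repress cell cycle genes in resting cells and activate them in G2, and the CCAAT box is bound by NF-Y. RefSeq promoters of build GRCm38.p6, from 250 bases before to 50 bases after the transcription start, were given for 33 members, Kif20a not among them. TTTGAA was present on either strand in 10 of 11 mitotic kinesins (90.9%), in 4 of 22 other kinesins (18.2%) and in 20.2% of all 27025 genes with a promoter. A gene with several promoters was counted if any of them matched. CCAAT was present in 7 of 11 mitotic kinesins (63.6%), in 9 of 22 others (40.9%) and in 41.1% of all genes with a promoter. Both motifs occurred together in 63.6% of mitotic kinesins, 13.6% of others and 7.97% of all genes with a promoter. The searches ran on both strands, no match of one motif overlapped a match of the other in a kinesin promoter, and a match describes these letters and not binding.

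The stretch from 120 bases before to 30 bases after the start is shown for 5 mitotic kinesins that carry TTTGAA near the start, for Kif18a, the mitotic kinesin without it, and for Kif1c, the most abundant transport kinesin. Each is written 5′ to 3′ on the strand of the gene, with the letters of a CHR element or CCAAT box on either strand in capitals.
Kif11 (chr19:37376262-37376411, plus strand): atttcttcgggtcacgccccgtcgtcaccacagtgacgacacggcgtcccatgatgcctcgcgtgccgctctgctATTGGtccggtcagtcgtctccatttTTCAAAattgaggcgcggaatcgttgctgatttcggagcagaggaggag
Kif22 (chr7:127042391-127042540, minus strand): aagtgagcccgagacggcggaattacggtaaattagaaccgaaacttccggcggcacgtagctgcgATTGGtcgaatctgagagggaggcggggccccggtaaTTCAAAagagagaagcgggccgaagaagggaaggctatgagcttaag
Kif20b (chr19:34922238-34922387, plus strand): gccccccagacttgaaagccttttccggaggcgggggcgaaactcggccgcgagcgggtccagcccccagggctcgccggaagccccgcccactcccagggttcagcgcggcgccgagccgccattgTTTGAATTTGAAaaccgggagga
Kif23 (chr9:61946770-61946919, minus strand): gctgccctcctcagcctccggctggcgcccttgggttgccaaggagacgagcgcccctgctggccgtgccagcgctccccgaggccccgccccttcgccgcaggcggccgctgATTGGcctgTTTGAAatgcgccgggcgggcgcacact
Kif4 (chrX:100625945-100626094, plus strand): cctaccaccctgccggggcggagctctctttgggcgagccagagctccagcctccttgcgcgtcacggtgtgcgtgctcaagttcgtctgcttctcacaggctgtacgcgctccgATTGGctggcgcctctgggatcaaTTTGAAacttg
Kif18a (chr2:109280618-109280767, plus strand): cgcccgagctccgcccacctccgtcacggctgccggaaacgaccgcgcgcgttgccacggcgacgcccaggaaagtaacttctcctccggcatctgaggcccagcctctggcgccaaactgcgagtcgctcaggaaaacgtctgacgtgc
Kif1c (chr11:70700428-70700577, plus strand): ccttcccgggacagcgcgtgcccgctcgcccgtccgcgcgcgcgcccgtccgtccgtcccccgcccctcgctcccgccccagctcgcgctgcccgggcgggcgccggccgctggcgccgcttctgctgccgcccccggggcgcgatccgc

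In Kif11 and Kif22 a CCAAT box on the reverse strand stood 45 and 54 bases before the start, and TTTGAA on the reverse strand stood 19 and 17 bases before it. In Kif20b, Kif23 and Kif4 the CHR element lay just past the start, 7, 2 and 19 bases into the transcript. The only TTTGAA of Kif14 and of Kif2c lay farther off, 228 and 103 bases before the start. Kif18a and Kif1c held neither motif in the window searched.

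Levels were compared between kinesins as normalized counts per kb of exon, from the union of GENCODE vM21 exons, for the 42 members found there. Transport kinesins were the abundant ones. Kif1c, a kinesin-3 motor for integrin-containing and dense-core vesicles, had 2604 normalized counts per kb over the 6 libraries, followed by Kif5b, the widely expressed heavy chain of conventional kinesin, with 999. Kif1b, which moves mitochondria and vesicle precursors, had 626 per kb, Kif3b, a subunit of heterotrimeric kinesin-2, had 556, and Kif13a, an endosomal kinesin-3, had 548. The mitotic kinesins began at rank 11 with Kif20a at 136 per kb, and Kif14 was their lowest member at 13.98. As a share of the counts on all tested kinesins, the mitotic set made up 5.91%, 4.14% and 3.87% in the WT libraries, in order of replicate number, against 9.88%, 5.01% and 10.1% in the DTR ScxLin libraries.

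**Figure D1:**
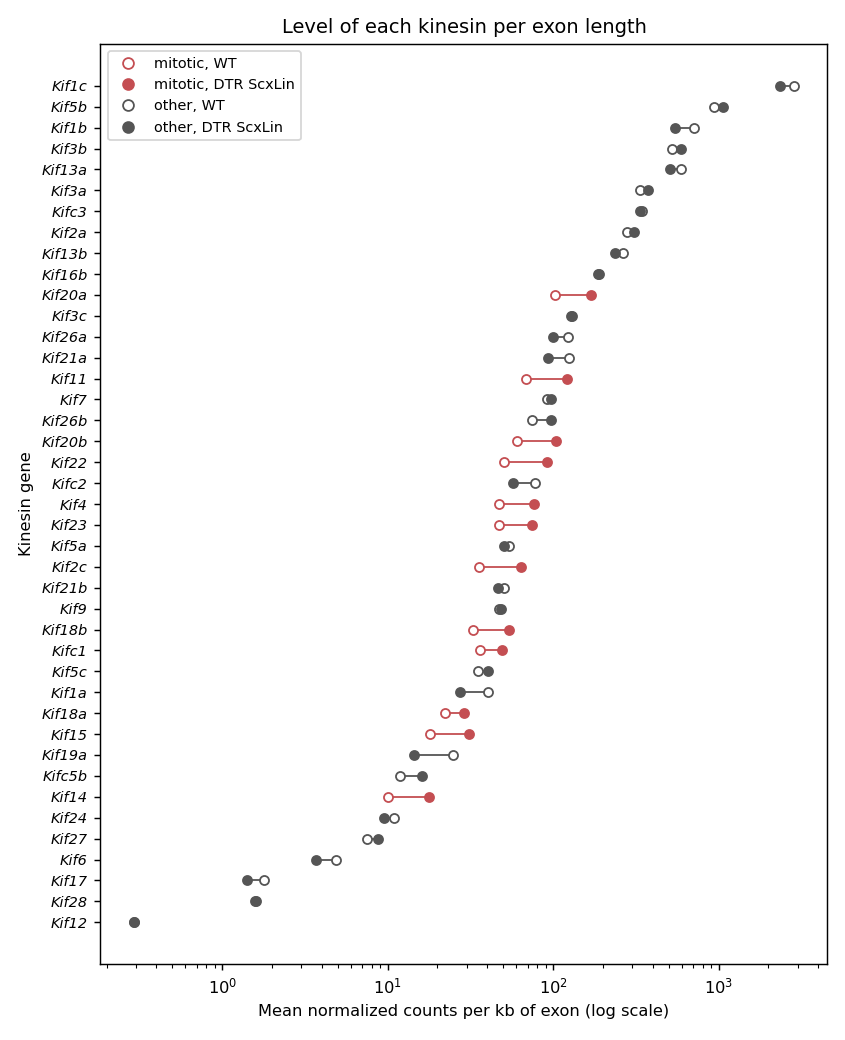
Mean normalized counts per kb of exon (log axis) for the 41 kinesins with a GENCODE length and at least 1 count, with WT as open and DTR ScxLin as filled circles and mitotic kinesins in red. The filled circle lies to the right of the open one in all 12 mitotic kinesins, and Kif1c is the highest at 2604 over both groups.

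Gene counts were compared with edgeR's quasi-likelihood test on TMM-normalized counts, adjusted by Benjamini and Hochberg over all 17496 genes that passed the filter on low counts, with an adjusted p under 0.05 as the threshold. All 12 mitotic kinesins and 26 of the other 31 passed the filter. Kif2b had no count in any library, which allows up to 3 counts per library, and Kif12, Kif17, Kif19b and Kif28 had at most 11 counts in any library. Libraries held between 42744138 and 48854310 counts, and the mitotic kinesins had between 71 and 1102 counts each. No kinesin was called by edgeR, and neither was any of the 17496 genes (0%). The rest of the text therefore gives values, standard errors and unadjusted calls beside the share of all genes that meet the same rule. DESeq2, tried as an alternative, called 1 kinesin, Kif20b, among the 1.12% of all genes it called higher in DTR ScxLin. It called none among the 1.53% of genes it called lower. The study itself tested with DESeq2 at the same threshold, and reported cell cycle pathways as enriched among its higher genes. The absence of called genes under edgeR is therefore not a result of the study's own test.

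The mean of every mitotic kinesin was higher in DTR ScxLin than in WT tendons. Their median log2 fold change was 0.75, against -0.08 for the other kinesins and 0.00816 for all tested genes, and the difference between both medians was 0.83. In 7 of 12 mitotic kinesins, and none in the opposite direction, the unadjusted edgeR p was under 0.05, a rule met in that direction by 5.52% of all genes. Their adjusted p-values from edgeR ran from 0.368 to 0.708. Of the other 26, 10 were fitted higher and 16 lower, and 5 had an unadjusted p under 0.05 in the lower and 0 in the higher direction, against 5.45% of all genes in the lower direction.

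**Figure D2:**
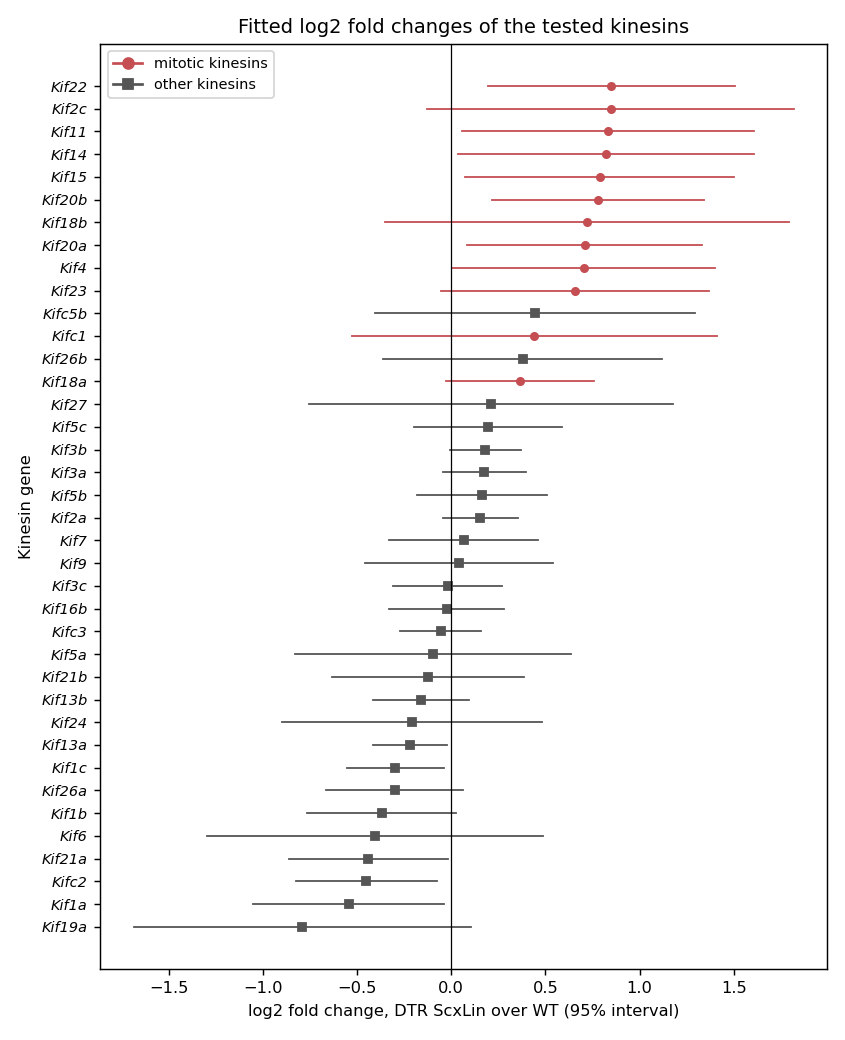
log2 fold change of DTR ScxLin over WT with its 95% interval from edgeR for the 38 tested kinesins, ordered by size, mitotic kinesins as red circles and the others as grey squares. The mitotic kinesins fill the 10 highest places, from 0.66 for Kif23 to 0.85 for Kif22, and the lowest is Kif19a at -0.79.

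Of the motors that set up the bipolar spindle, Kif11 and Kif15 were among the mitotic kinesins with the larger differences, and Kifc1 among those with the smaller. Kif11, the kinesin-5 that pushes the spindle poles apart by sliding antiparallel microtubules, had 678, 436 and 411 normalized counts in the WT libraries against 1135, 559 and 1022 in the DTR ScxLin libraries. Its log2 fold change was 0.83 (standard error 0.32, adjusted p = 0.447 by edgeR). Kif15, which holds the poles apart together with Kif11, had 250, 200 and 148 in the WT libraries against 399, 213 and 418 in the DTR ScxLin libraries, a log2 fold change of 0.79 (standard error 0.31). In both genes DTR ScxLin replicate 2 lay between the WT libraries, so the groups overlapped.

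Kifc1 runs in the opposite direction to Kif11 and focuses microtubules at the poles. It had 158, 114 and 95.6 normalized counts in the WT libraries against 206, 75.5 and 218 in the DTR ScxLin libraries (log2 fold change 0.44, standard error 0.41, adjusted p = 0.708 by edgeR). DTR ScxLin replicate 2 was the lowest of the 6 libraries, which occurred in no other mitotic kinesin. Of its 50-base transcript windows, 47.6% also occur in other genes, mainly its close copy Kifc5b, so reads could be split between them. The sum of both genes was 217, 145 and 137 in the WT libraries against 269, 116 and 294 in the DTR ScxLin libraries, again with DTR ScxLin replicate 2 lowest.

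The motors that control microtubule ends differed in how much they varied between libraries. Kif2c, a kinesin-13 that takes microtubules apart at kinetochores to correct faulty attachments, had 230, 124 and 111 normalized counts in the WT libraries against 369, 150 and 319 in the DTR ScxLin libraries. Its log2 fold change of 0.85 had a standard error of 0.41 and a 95% interval from -0.13 to 1.82. Kif18b, which acts on astral microtubules, had 164, 113 and 73.8 in the WT libraries against 249, 88.9 and 240 in the DTR ScxLin libraries (log2 fold change 0.72, standard error 0.45). Kif18a, the kinesin-8 that dampens chromosome movement at the metaphase plate, varied least within both groups (coefficient of variation 8.46% in WT and 10.4% in DTR ScxLin), with 240, 212 and 206 in the WT libraries against 306, 250 and 293 in the DTR ScxLin libraries. It was the one mitotic kinesin whose groups did not overlap, a pattern seen in 8.96% of all genes in this direction, and it also had the smallest log2 fold change of the set, 0.37 (standard error 0.17, adjusted p = 0.473 by edgeR). These values belong to the gene whose promoter lacked TTTGAA, which is a description of 1 gene.

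Both chromokinesins, which bind chromosome arms, had higher means in DTR ScxLin tendons. Kif22, which pushes chromosomes towards the spindle equator, had 311, 232 and 205 normalized counts in the WT libraries against 512, 284 and 551 in the DTR ScxLin libraries. Its log2 fold change of 0.85 was the largest among the mitotic kinesins (standard error 0.28, 95% interval 0.19 to 1.51, adjusted p = 0.389 by edgeR). Kif4, which takes part in chromosome condensation and organizes the spindle midzone, had 352, 201 and 223 in the WT libraries against 515, 280 and 470 in the DTR ScxLin libraries (log2 fold change 0.70, standard error 0.30). In both genes WT replicate 1 was above DTR ScxLin replicate 2.

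In the 4 kinesins of cytokinesis DTR ScxLin replicates 1 and 3 were again the highest libraries. Kif20a, which brings the chromosomal passenger complex to the midzone, had 561, 442 and 340 normalized counts in the WT libraries against 934, 512 and 748 in the DTR ScxLin libraries (log2 fold change 0.71, standard error 0.26, adjusted p = 0.429 by edgeR). Kif20b, which acts at the midbody, had 499, 401 and 356 in the WT libraries against 877, 485 and 795 in the DTR ScxLin libraries. It had the lowest adjusted p of all kinesins, 0.368 by edgeR, with a log2 fold change of 0.78 (standard error 0.24), and DESeq2 gave it an adjusted p of 0.0491. The study reported cell cycle genes as higher in these same libraries, so the direction of the mitotic kinesins and their partners is not independent evidence. Kif23, the motor of centralspindlin, had 482, 331 and 300 in the WT libraries against 727, 362 and 668 in the DTR ScxLin libraries (log2 fold change 0.66, standard error 0.30). Kif14, which binds citron kinase and Prc1 at the midbody, had 131, 90.4 and 92.5 in the WT libraries against 231, 105 and 219 in the DTR ScxLin libraries (log2 fold change 0.82, standard error 0.34).

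**Figure D3:**
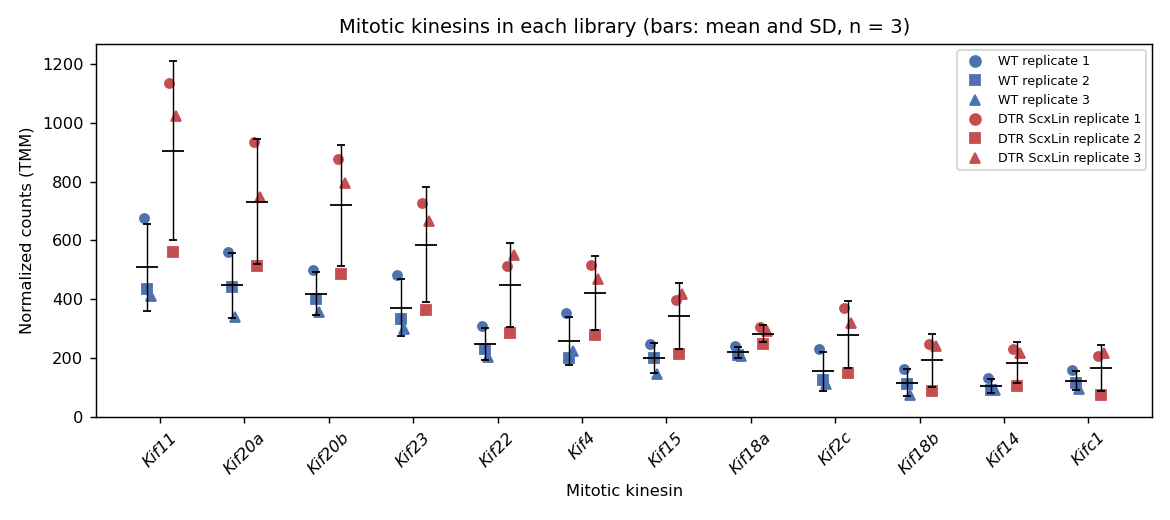
TMM-normalized counts of the 12 mitotic kinesins in each library, WT in blue and DTR ScxLin in red, with the replicate number as symbol and the mean and SD (n = 3) in black. DTR ScxLin replicates 1 and 3 are the 2 highest libraries in all 12 genes, and replicate 2 lies within the WT range in 10.

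The libraries were ordered alike across the mitotic set. DTR ScxLin replicates 1 and 3 were the highest 2 libraries in 12 of 12 genes, whereas DTR ScxLin replicate 2 lay within the WT range in 10, above it in Kif18a and below it in Kifc1. WT replicate 1 was the highest WT library in 12 of 12, and WT replicate 3 the lowest in 10, with Kif4 and Kif14 as the exceptions. Summed over the set, normalized counts were 4057, 2897 and 2562 in the WT libraries against 6461, 3365 and 5961 in the DTR ScxLin libraries, a ratio of means of 1.66. The coefficient of variation within a group had a median of 25.9% in WT and 33.2% in DTR ScxLin tendons for the mitotic kinesins, against 11.3% and 14.7% for the other tested kinesins. Because the 12 genes share their libraries, their common order counts once and not 12 times.

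Single libraries decided how many mitotic kinesins had an unadjusted p under 0.05 in the higher direction. Without WT replicate 1 the count was 9 of 12 (3.86% of all genes), without WT replicate 2 it was 1 (2.81%), without WT replicate 3 it was 0 (5.93%), while it was 1 on leaving out DTR ScxLin replicate 1 (3.5%), 12 on leaving out its replicate 2 (6.95%) and 1 on leaving out its replicate 3 (4.12%). Among these fits, only the one that left out DTR ScxLin replicate 2 called kinesins by edgeR's adjusted p, namely Kif20b (0.0282, and up to 0.859 over all settings tried) and Kif22 (0.0421, and up to 0.886), where 0.572% of all genes were called higher. The median of the set kept its direction in these 6 fits, from 0.56 to 1.02. Labels gave no batch, and libraries were separated by Xist counts as a stand-in for the sex of the mice. The mitotic mean log2 level was higher in DTR ScxLin by 0.98 among the 3 libraries low in Xist (2 WT, 1 DTR ScxLin) and by 0.59 among the 3 libraries high in Xist (1 WT, 2 DTR ScxLin). Relative to the WT mean, the libraries high in Xist had -0.10 (WT replicate 2), 0.03 and 0.95 (DTR ScxLin replicates 2 and 3). The 0.59 therefore came mostly from DTR ScxLin replicate 3, and the 0.98 from DTR ScxLin replicate 1 alone.

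Skeletal muscle RNA was lowest in DTR ScxLin replicates 1 and 3, the libraries highest in mitotic kinesins, whereas among the WT libraries the one with most muscle RNA, replicate 1, was also highest in mitotic kinesins. The 20 skeletal muscle markers, such as Acta1, Ckm and Myh4, took up 2.66%, 2.38% and 1.92% of counts in the WT libraries against 0.331%, 2.37% and 0.626% in the DTR ScxLin libraries, with none of the 20 at 0. DTR ScxLin replicate 2, which resembled WT in the mitotic kinesins, thus also resembled WT in muscle RNA. With the muscle level as a covariate, an analysis added after the data were seen, the median log2 fold change of the mitotic kinesins was 0.21, and 0 of 12 had an unadjusted p under 0.05 in the higher direction, against 3.25% of all genes. Of the other 26 kinesins, 1 had one in the lower direction, against 3.22% of all genes. Markers of keratinocytes took up 0.308%, 0.186% and 0.00286% of counts in the WT libraries against 0.00145%, 0.00258% and 0.0299% in the DTR ScxLin libraries. Relative to the WT mean, the log2 muscle level was -2.67, 0.06 and -2.06 in the DTR ScxLin libraries. Low levels occurred only in DTR ScxLin replicates 1 and 3, the libraries highest in mitotic kinesins. DTR ScxLin replicate 2 lay within the WT range of -0.24 to 0.21. Muscle level was thus tied to genotype in part, and the covariate cannot fully separate them. The part of muscle or skin RNA in the kinesin differences was not tested. Tendon markers (8 of 8 detected) took up 3.72% to 4.38% of counts in WT and 4.19% to 5.46% in DTR ScxLin libraries. The collagen I genes Col1a1 and Col1a2 had the most counts among them. Of the 8, 7 were fitted higher (51.5% of all genes) and 1 lower, Fmod at -0.17. Scx had 2201, 2703 and 3063 normalized counts in the WT libraries against 3475, 3406 and 3531 in the DTR ScxLin libraries. Its groups did not overlap (8.96% of all genes in this direction), with a log2 fold change of 0.39 (standard error 0.12).

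Genes whose proteins work with mitotic kinesins showed the same order of libraries in their mean level, which relative to the WT mean was 0.32, -0.07 and -0.25 on the log2 scale in the WT libraries against 0.86, 0.07 and 0.79 in the DTR ScxLin libraries. Cenpe, the kinesin-7 of the kinetochore, whose symbol does not carry the family's name, had 468, 359 and 273 normalized counts in the WT libraries against 828, 437 and 858 in the DTR ScxLin libraries (log2 fold change 0.95, standard error 0.31, adjusted p = 0.392 by edgeR and 0.0367 by DESeq2). Of 17 spindle and cytokinesis partners, 16 were fitted higher, 8 had an unadjusted p under 0.05 in that direction (5.52% of all genes) and 0 in the other (5.45%), and DESeq2 called 3 higher (1.12% of all genes), namely Cenpe and, named after their values were seen, Hmmr and Anln. Their median log2 fold change was 0.66, and the smallest was that of Numa1, the spindle pole protein that also resides in interphase nuclei, at -0.09. The 10 markers of cycling cells had a median of 0.73, from Bub1b, a spindle checkpoint kinase, at 0.42 to Cenpf, a kinetochore protein, at 0.88, with 3 under an unadjusted p of 0.05 in the higher direction (5.52% of all genes) and 0 called by DESeq2. The 10 DNA replication genes had a smaller median of 0.29, from Mcm7 at 0.08 to Gins2 at 0.53, with 3 under an unadjusted p of 0.05 in the higher direction, against the same 5.52%. In 5 of these 10 every DTR ScxLin library was above every WT library (8.96% of all genes), against 0 of the 10 cycling markers. Their mean log2 level relative to the WT mean was 0.10, -0.21 and 0.11 in the WT libraries against 0.39, 0.19 and 0.29 in the DTR ScxLin libraries.

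Relative to proliferation markers the mitotic kinesins lay in a narrow range. For every 100 normalized counts of the 10 cycling markers, the mitotic kinesins had 42.7, 45.8 and 46.5 in the WT libraries against 46.6, 46.1 and 45.5 in the DTR ScxLin libraries. For every 100 counts of Mki67 the values were 111, 121 and 127 in the WT libraries against 130, 130 and 119 in the DTR ScxLin libraries. The mean log2 level of the set relative to the WT mean was 0.40, -0.10 and -0.29 in the WT libraries against 1.03, 0.03 and 0.95 in the DTR ScxLin libraries, and that of the cycling markers was 0.44, -0.12 and -0.32 and 1.01, 0.10 and 0.90. Both lists therefore spanned about the same range in the same order.

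**Figure D4:**
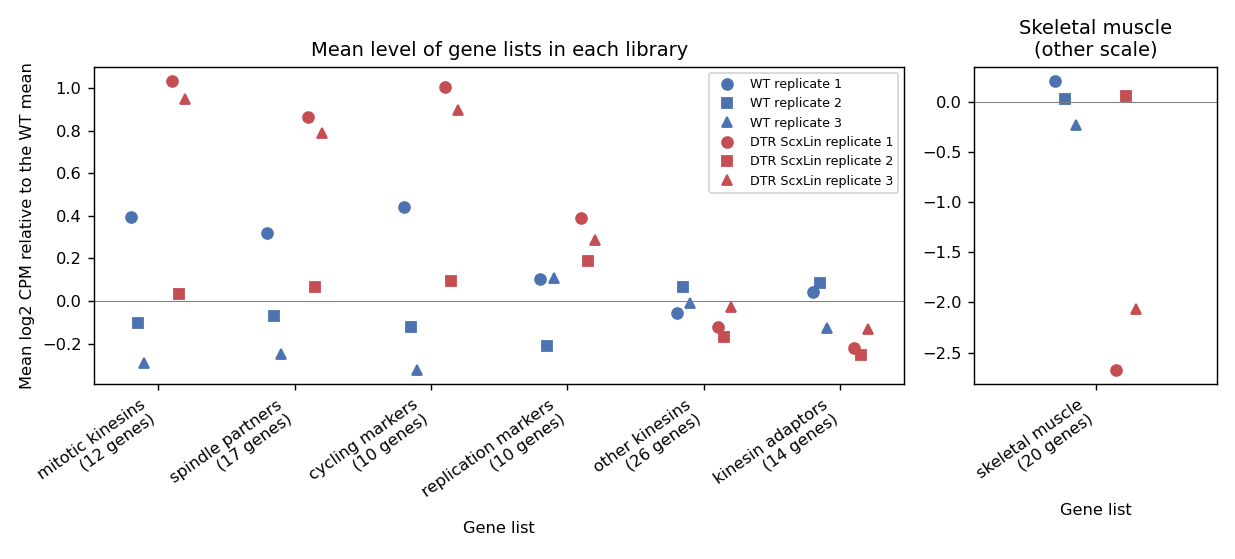
Mean log2 CPM of each gene list in each library relative to the WT mean (left panel), with skeletal muscle on its own scale (right panel). Mitotic kinesins, spindle partners and cycling markers are highest in DTR ScxLin replicates 1 and 3 (1.03 and 0.95 for the mitotic kinesins), the same libraries that are lowest in skeletal muscle RNA.

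Among the other kinesins, 6 of 6 tested kinesin-3 transport motors were fitted lower in DTR ScxLin tendons, as were 8479 of all 17496 tested genes. Their sizes differed, and Kif16b, with -0.02 (standard error 0.13), had no clear difference. Kif1c had 21599, 20407 and 20631 normalized counts in the WT libraries against 16984, 18793 and 15247 in the DTR ScxLin libraries, so every DTR ScxLin library was below every WT library. Its log2 fold change was -0.30 (standard error 0.11, 95% interval -0.56 to -0.04, adjusted p = 0.429 by edgeR). Kif13a likewise did not overlap, with 4793, 4955 and 4576 in the WT libraries against 4082, 4400 and 3821 in the DTR ScxLin libraries (log2 fold change -0.22, standard error 0.08). Kif1b had 11711, 14018 and 11537 in the WT libraries against 8105, 12119 and 8618 in the DTR ScxLin libraries (log2 fold change -0.37, standard error 0.17), and its DTR ScxLin replicate 2 lay within the WT range. Kif13b, a kinesin-3 of membrane traffic, had 3555, 3659 and 3091 in the WT libraries against 3459, 2952 and 2821 in the DTR ScxLin libraries (log2 fold change -0.16, standard error 0.11).

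Of the kinesin-3 transport motors that met the rule for naming, Kif1b moved most with the muscle level. With muscle as a covariate its log2 fold change was -0.06, against -0.57 without DTR ScxLin replicate 2. Kif1c and Kif13a had -0.18 and -0.13 with that covariate, closer to 0, while Kif13b and Kif1a had -0.23 and -0.78, farther from 0. Kif1a, known for carrying synaptic vesicle precursors in axons, had 294, 473 and 356 normalized counts in the WT libraries against 269, 215 and 287 in the DTR ScxLin libraries, without overlap (log2 fold change -0.54, standard error 0.22, adjusted p = 0.447 by edgeR). Schwann cell markers (8 of 8 detected) took up 0.0620%, 0.113% and 0.101% of counts in the WT libraries against 0.0448%, 0.0601% and 0.0788% in the DTR ScxLin libraries, and neuronal markers 0.00158% to 0.00294% and 0.00171% to 0.00213%, with Syt1 at 0 in all libraries. Of the 8 neuronal markers only 3 passed the filter on low counts, and Stmn2, with 552 to 1163 counts per library, held most of this share. The part of Schwann cell or neuronal RNA in the level of Kif1a was not tested.

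Outside kinesin-3, 10 kinesins were fitted lower, of which 3 met the rule for naming. Kifc2, a minus-end-directed kinesin studied mainly in neurons, had 284, 335 and 297 normalized counts in the WT libraries against 213, 243 and 215 in the DTR ScxLin libraries, without overlap. Its log2 fold change of -0.45 (standard error 0.16) came with the lowest adjusted p among the other kinesins, 0.413 by edgeR. Kif21a, a kinesin-4 that restrains microtubule growth at the cell cortex, had 984, 838 and 614 in the WT libraries against 524, 645 and 628 in the DTR ScxLin libraries (log2 fold change -0.44, standard error 0.18), where WT replicate 3 lay among the DTR ScxLin libraries. Kif19a, a kinesin-8 that limits the length of motile cilia, had the largest log2 fold change of any tested kinesin in the lower direction, -0.79 (standard error 0.38), from 80.2, 120 and 104 in WT to 29.9, 67.9 and 78.1 in DTR ScxLin libraries. The gene body of Kifc2 overlaps the antisense gene Cyhr1, as those of Kif4, Kif18a and Kif20a overlap Pdzd11, Mettl15 and Cdc23, and the strand setting of the counting is not given in the sources used here.

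Kif3b, a motor of intraflagellar transport, and Kif5b, a motor of conventional transport, had higher means in DTR ScxLin tendons by small amounts. Kif3b had 3018, 2795 and 3004 normalized counts in the WT libraries against 3556, 3249 and 3192 in the DTR ScxLin libraries, the only one of the other kinesins with every DTR ScxLin library above every WT library (log2 fold change 0.18, standard error 0.08, adjusted p = 0.464 by edgeR). Kif5b had 7133, 7819 and 7617 in the WT libraries against 8563, 10069 and 6647 in the DTR ScxLin libraries, so DTR ScxLin libraries lay on both sides of the WT range (log2 fold change 0.16, standard error 0.15, 95% interval -0.18 to 0.51). In all, groups did not overlap in 6 of the other 26 kinesins, Kif3b above and Kif1a, Kif1c, Kif13a, Kif19a and Kifc2 below, where 8.96% of all genes lay above and 7.85% below. Leaving out a library in turn, the number of other kinesins with an unadjusted p under 0.05 in the lower direction was 3 without WT replicate 1 (3.66% of all genes), 0 without WT replicate 2 (2.76%), 3 without WT replicate 3 (7.13%), and, among the DTR ScxLin libraries, 1 without replicate 1 (3.76%), 5 without replicate 2 (9.68%) and 1 without replicate 3 (4.42%). With 10 other kinesins fitted higher and 16 lower, the set had no common direction.

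**Figure D5:**
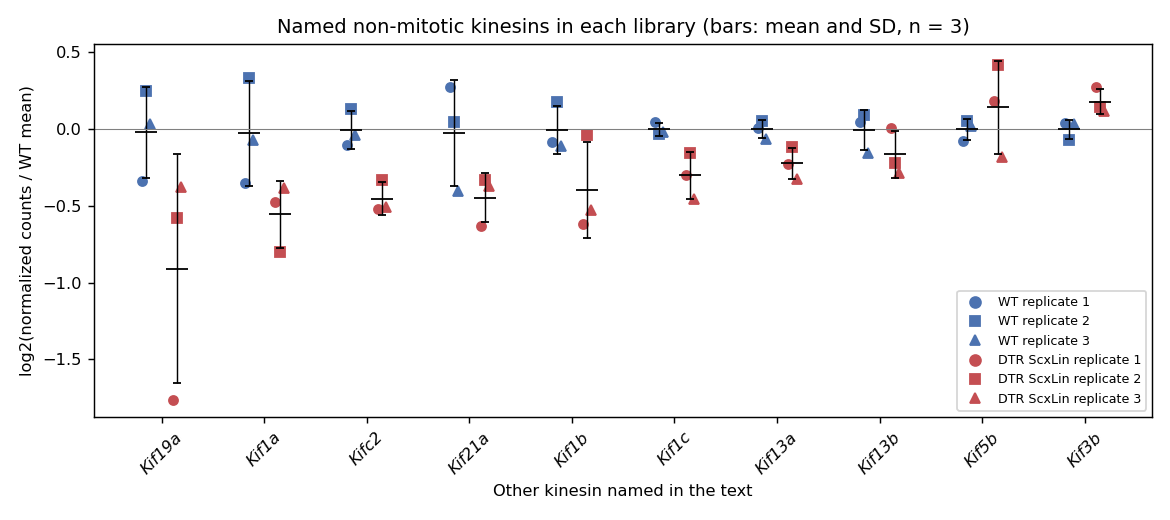
log2 of the normalized counts over the WT mean in each library for the 10 kinesins outside the mitotic set that met the rule for naming, ordered by their fitted log2 fold change, with the mean and SD (n = 3) in black. The DTR ScxLin libraries of Kif1a, Kif1c, Kif13a, Kif19a and Kifc2 lie below all WT libraries and those of Kif3b above them.

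Lists of transport genes had medians from -0.16 to 0.09, nearer to the 0.00816 of all tested genes than the 0.75 of the mitotic kinesins. The adaptors lay farther from all genes than the other kinesins, whose median was -0.08. The 14 kinesin adaptors had a median log2 fold change of -0.16, from Klc3, a kinesin light chain, at -1.10 (standard error 0.64) to Kifap3, the partner of Kif3a and Kif3b, at 0.13, and 1 of the 14 had an unadjusted p under 0.05, in the lower direction (5.45% of all genes). In 6 of the 14 every DTR ScxLin library was below every WT library (7.85% of all genes), and in 1 every one was above (8.96%). The gene with the low p was Trak1, which links Kif5 motors to mitochondria, with 5818, 5422 and 5399 normalized counts in the WT libraries against 4813, 4867 and 4799 in the DTR ScxLin libraries (log2 fold change -0.20, standard error 0.07, adjusted p = 0.423 by edgeR). It was named after its value was seen. The 18 genes of dynein and dynactin, the motor of the opposite direction, had a median of 0.05, from Dynll2 at -0.19 to Dync1i1 at 0.39, and 0 had an unadjusted p under 0.05. The 15 intraflagellar transport genes had a median of 0.09, from Ift172 at -0.11 to Ift80 at 0.28, with 2 under an unadjusted p of 0.05 in the higher direction (5.52% of all genes).

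The tubulins, from which the tracks are built, differed among themselves. Of 12 tubulin genes, 4 had an unadjusted p under 0.05 in the higher (5.52% of all genes) and 0 in the lower direction (5.45%), with a median log2 fold change of 0.23. Tubb2b, a beta-tubulin, had 1035, 1005 and 1169 normalized counts in the WT libraries against 1877, 1561 and 1962 in the DTR ScxLin libraries, without overlap. Its log2 fold change was 0.75 (standard error 0.11, adjusted p = 0.199 by edgeR and 6.47e-05 by DESeq2). Tuba4a, an alpha-tubulin abundant in muscle, was at the other end with 5985, 4640 and 2501 in the WT libraries against 955, 2836 and 1116 in the DTR ScxLin libraries (log2 fold change -1.42, standard error 0.58), with DTR ScxLin replicates 1 and 3, the libraries low in muscle RNA, as its lowest.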

How the data were processed

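Bulk RNA-seq was measured in 3 DTR ScxLin and 3 WT tendons, grouped by the genotype in the labels. Reads were cleaned with FastP and assigned to genes by featureCounts, and the authors deposited the resulting whole-number counts as they were. A second deposited table holds normalized signal, the same counts over 1 size factor per library (0.973 to 1.06), as given by DESeq2 (version 1.22.1 in the submitters' processing notes). Multiplying back, with the factor taken from the library totals of both tables, gave whole reads for 100% of its values within 0.01. These are the deposited counts again, so edgeR on them repeated the main fit, with 0 genes called. The labels name both a TruSeq Stranded mRNA and a SMARTER kit. Aligner, genome build, annotation and strand setting are not given in the sources used here, which leaves genes that overlap or lie antisense uncertain.

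The test used edgeR 4.0.16 under R 4.3.3 (filterByExpr, TMM, robust quasi-likelihood test of genotype), with DESeq2 1.42.0 and limma 3.58.1 as alternatives. Normalized counts are TMM-normalized to the mean library size. The members, the gene lists and the tests were chosen with earlier results of these data known. All 12 mitotic kinesins were named, and of the others those with an unadjusted p under 0.05 or a DESeq2 adjusted p under 0.05, those without overlap between groups whose mean normalized count was 50 or more, and the 5 most abundant. Other kinesins were mentioned without meeting this rule, such as Kif16b, the remaining tested kinesin-3. Of each partner list, the largest and smallest log2 fold change were named, with Cenpe and Mki67. Replicates of a group differed by a chi-square of 40.4 to 206 per degree of freedom, so none was counted as a duplicate. Other settings tried were limma-voom, RLE factors, no filter on low counts, a minimum of 10 counts in all libraries, a replicate block, omission of each library, limma on log2(value + 1) of the deposited normalized values, and, added after the data were seen, the muscle covariate and the recovered reads. Read sharing was estimated as the percent of 50-base transcript windows of a gene found in other GENCODE vM21 genes. Protein sequences were not analysed here.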

Additional observations from a re-analysis of the deposited data

How the results depend on the processing

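The number of kinesins called was 0 with edgeR under TMM and RLE factors, either filter on low counts, limma-voom, limma on the deposited normalized counts, the muscle covariate and the replicate block. It was also 0 on the recovered reads, which repeat the main fit and are no separate check. DESeq2 called 1 (466 genes called in all). When a library was left out the number was 0 to 2, with 2 without DTR ScxLin replicate 2 (544 genes called in all). The median log2 fold change of the mitotic kinesins kept its direction in all settings, with 0.21 at its lowest under the muscle covariate and 0.56 to 1.02 when a library was left out. The median of the other kinesins was -0.20 with the muscle covariate and -0.13 to -0.0058 when a library was left out, without DTR ScxLin replicates 1 and 2 respectively. With the muscle covariate Kif18b turned to -0.23 and Kifc1 to -0.54, and the cause was not tested. All other kinesins that met the rule for naming kept their direction in all settings. Deviations of same-numbered libraries from their group means correlated between -0.73 and -0.21. This gave no sign that the numbers pair the samples, though 3 libraries per group cannot exclude it. The replicate block gave medians of 0.72 for the mitotic and -0.08 for the other kinesins, with 1 gene called in all. Without a filter on low counts 83 genes were called, none of them a kinesin. The 3 libraries per group limit the precision, and counting error adds to it in the kinesins of low counts such as Kif6, with 14 to 33 counts per library.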
